A study of Mus musculus with 12 samples.

Results

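The state reached after 4 days of reprogramming in AF10-deleted cells under a DOT1L inhibitor was described from 4 of the 12 RNA-seq libraries of the series. They were the 2 libraries titled Day4_creAF10_SGC and the 2 titled MEF_creAF10, chosen by title alone. Mouse embryonic fibroblasts (MEFs) of genotype AF10 fl/fl, OSKM, rtTA were the starting cells in every group, so that all 12 libraries carried floxed AF10 (Mllt10) alleles and the reprogramming cassette. OSKM stands for the factors Pou5f1 (OCT4), Sox2, Klf4 and Myc, and rtTA is the doxycycline-controlled activator that switches such a cassette on.

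MEF_creAF10 cells had received adenovirus Ad5-CMV-Cre, which drives Cre recombinase from a promoter active in most cell types, and had been given neither doxycycline nor inhibitor. Day4_creAF10_SGC cells had received the same virus and, 2 days later, doxycycline at 2 µg/mL with the DOT1L inhibitor SGC0946 at 5 µM, and were harvested on day 4. The other groups, each of 2 libraries, were Day4_creAF10_DMSO (the same virus and doxycycline, with vehicle), MEF_fl, Day4_fl_DMSO and Day4_fl_SGC (control virus Ad5-CMV-Empty). No group had Cre virus without floxed alleles. MEFs grew in MEF medium, and reprogramming cells on DR4 feeder MEFs in a medium for embryonic stem cells that held leukemia inhibitory factor. Medium, feeder cells, doxycycline, inhibitor and time therefore cannot be told apart in the comparison of day 4 with MEFs. Feeder cells shared the day 4 cultures, and their part in the day 4 RNA was not tested.

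DOT1L is the enzyme that methylates lysine 79 of histone H3 over the bodies of transcribed genes, and AF10 is a partner that helps it extend that methylation. Reprogramming of fibroblasts proceeds in stages. Fibroblast genes are shut down and epithelial genes come on early, in what is called a mesenchymal-to-epithelial transition, and the endogenous pluripotency network follows later. Inhibition of DOT1L is known to raise the yield of pluripotent colonies from mouse and human fibroblasts.

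The library totals were 16258109 and 22800753 counts in MEF_creAF10 and 17531504 and 15135736 in Day4_creAF10_SGC, and levels are given as counts per scaled library size (CPM). The targeted gene Mllt10 was read at 43.1 and 45.4 CPM in MEF_fl and at 35.4 and 34.4 CPM in MEF_creAF10. On day 4 it was read at 41.7 and 40.5 CPM in Day4_creAF10_SGC, 44.2 and 41.8 CPM in Day4_creAF10_DMSO, 54.1 and 55.7 CPM in Day4_fl_SGC and 61.4 and 55.3 CPM in Day4_fl_DMSO. The 6 AF10-deleted libraries thus retained reads of the gene. A count over the whole gene does not check a deletion of part of it, and the deleted part is not given in the labels. Dot1l itself was at 56.6 and 49.4 CPM in the MEFs and 68.1 and 59.7 CPM on day 4, a difference that was not called (log2 0.27 ± 0.12, SE; adjusted p = 0.0792).

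The sequences of a pair of promoters are shown first because the genes they belong to, Isg15 and Ifit1, were among the strongest losses on day 4. Both are interferon-stimulated genes: Isg15 encodes a ubiquitin-like modifier and Ifit1 a sensor of foreign RNA ends. The windows run from 250 bases before to 50 bases after the transcript start in RefSeq's annotation of build GRCm38.p6, 5′ to 3′ on the strand of the gene, at chr4:156200769-156201068 (minus strand) for Isg15 and at chr19:34640639-34640938 (plus strand) for Ifit1. Capitals mark each match, on either strand, to GAAA followed by any 2 bases and GAAA, the core of the element bound by the interferon-activated complex that holds STAT2 and IRF9.
Isg15: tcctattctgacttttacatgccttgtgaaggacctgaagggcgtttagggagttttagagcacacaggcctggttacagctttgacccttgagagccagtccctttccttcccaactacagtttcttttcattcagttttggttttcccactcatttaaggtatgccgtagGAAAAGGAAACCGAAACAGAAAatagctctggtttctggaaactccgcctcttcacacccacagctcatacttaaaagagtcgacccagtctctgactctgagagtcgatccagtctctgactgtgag
Ifit1: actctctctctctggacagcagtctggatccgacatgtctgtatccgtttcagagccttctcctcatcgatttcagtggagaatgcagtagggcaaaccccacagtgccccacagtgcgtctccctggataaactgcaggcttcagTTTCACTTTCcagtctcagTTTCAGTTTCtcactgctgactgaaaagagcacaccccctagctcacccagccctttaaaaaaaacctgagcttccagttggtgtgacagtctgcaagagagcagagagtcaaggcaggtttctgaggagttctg
The Isg15 window held 3 overlapping matches on the strand shown, and the Ifit1 window 2 separate matches on the opposite strand.

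After 4 days under the inhibitor most collagen and interferon-stimulated genes were lower than in MEFs and most tested epithelial junction genes higher. Of 13936 genes tested, 3785 (27.2%) were higher and 3710 (26.6%) lower on day 4 than in MEF_creAF10 at an adjusted p under 0.05, the threshold for a call, which is 53.8% in all. Past 2-fold there were 1522 higher and 1500 lower genes (21.7% of those tested), and past 32-fold 129 higher and 56 lower. The median log2 change over all genes was 0.02. With library totals in place of scaled ones that median moved to 0.18 and the calls to 5002 higher and 2760 lower, so changes are read against the middle of all genes.

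The change was alike in both replicate numbers: all 7495 called genes had the same sign in the pair numbered 1 and the pair numbered 2. A call needs agreement between libraries, so this describes the calls and does not test them. C1qtnf3, which encodes a secreted C1q-domain protein, was called and had log2 changes of -7.06 in pair 1 and -3.51 in pair 2, with MEF levels of 234 and 29.9 CPM. Its day 4 levels were 1.64 and 2.52 CPM.

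Of the marker genes, the epithelial one rose and the 3 fibroblast ones fell. Cdh1, the epithelial cell adhesion molecule E-cadherin, was at 0.674 and 1.84 CPM in the MEF libraries and at 68.2 and 57.0 CPM on day 4 (log2 5.55 ± 0.39, SE; adjusted p = 9.18e-06). Postn, the matricellular protein periostin, went from 4528 and 2910 CPM to 70.0 and 57.2 CPM (log2 -5.87 ± 0.37). Igfbp5, an insulin-like growth factor binding protein abundant in fibroblasts, went from 4002 and 4915 CPM to 114 and 145 CPM (log2 -5.10 ± 0.17). In none of these did a day 4 library come near a MEF library. Lox, lysyl oxidase, which crosslinks collagen and elastin, fell less, from 3497 and 3493 CPM to 552 and 542 CPM (log2 -2.68 ± 0.12).

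**Figure D1:**
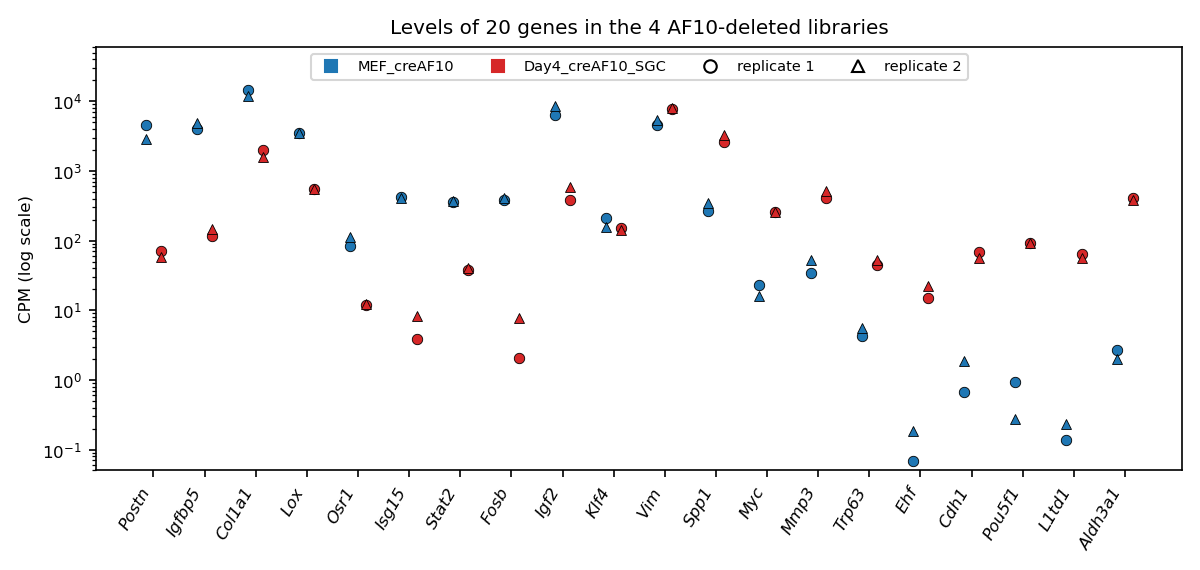
CPM on a log scale for genes named in the text, in MEF_creAF10 (blue) and Day4_creAF10_SGC (red), with circles for replicate 1 and triangles for replicate 2. The groups stand apart for each gene drawn, narrowly so for Klf4, with Postn falling from 4528 and 2910 to 70.0 and 57.2 CPM and Cdh1 rising from 0.674 and 1.84 to 68.2 and 57.0 CPM.

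The factors of the cassette were read as follows, with reads of the cassette and of the endogenous genes summed. Pou5f1 rose from 0.943 and 0.276 CPM to 90.7 and 93.5 CPM (log2 7.36 ± 0.28). Myc rose from 22.8 and 16.2 CPM to 255 and 257 CPM, and Sox2 from 9.10 and 5.94 CPM to 84.4 and 87.4 CPM. The day 4 replicates lay close together for each. Klf4 was not called, at 213 and 155 CPM in MEFs and 153 and 142 CPM on day 4 (log2 -0.32 ± 0.15; adjusted p = 0.0976). Klf4 RNA was thus already present in MEFs.

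Matrix genes gave up the largest share of the RNA. Of 18 collagen genes tested 15 fell and 1 rose, with a median log2 change of -1.81. Col1a1, a chain of type I collagen, went from 14494 and 12003 CPM to 2025 and 1602 CPM, and Col3a1 from 14734 and 10391 CPM to 2758 and 2506 CPM. Per length, the collagen list held 25100 and 20330 TPM, a unit that divides by transcript length and by the library sum in the MEFs and 5235 and 4764 TPM on day 4, a ratio of 0.22. Col1a1, Col1a2 and Col3a1 ranked 3, 5 and 7 by mean TPM among all genes in MEFs and 158, 107 and 142 on day 4. The largest fall among the collagens was that of Col8a2, a short-chain collagen, from 99.7 and 87.5 CPM to 1.97 and 2.83 CPM. Col15a1, a basement-membrane-zone collagen, was the one that rose, from 43.4 and 30.4 CPM to 152 and 110 CPM (log2 1.83 ± 0.30).

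Among 21 matrix crosslinking, elastic fibre and matricellular genes 14 fell and 2 rose (median -1.15). Sparc, a collagen-binding matricellular protein, fell from 7301 and 6022 CPM to 1801 and 1618 CPM, and Loxl1 from 714 and 760 CPM to 232 and 213 CPM. Eln, which encodes elastin, fell from 1779 and 503 CPM to 73.2 and 79.8 CPM (log2 -3.90 ± 0.71), with MEF libraries that were themselves far apart. The exceptions were Spp1 and Loxl3. Spp1, the secreted phosphoprotein osteopontin, rose from 266 and 351 CPM to 2566 and 3313 CPM (log2 3.25 ± 0.28), and Loxl3, another lysyl oxidase, from 135 and 140 CPM to 266 and 237 CPM. Fn1, fibronectin, fell only from 7099 and 7106 CPM to 3964 and 4376 CPM, and Thbs1, thrombospondin 1, was not called at 6516 and 4366 against 3777 and 3845 CPM.

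Fibroblast identity genes were lost unevenly: 15 of 26 fell, 4 rose and 7 were not called (median -1.21). Cdh11, the mesenchymal cadherin, fell from 1732 and 1622 CPM to 330 and 372 CPM. Dpt and Dcn, the matrix proteins dermatopontin and decorin, fell by 5.73 and 2.96 on the log2 scale from MEF levels that differed between the libraries, 263 and 64.9 CPM for Dpt and 1571 and 460 CPM for Dcn. Vim, the intermediate filament protein vimentin, rose from 4574 and 5327 CPM to 7676 and 7882 CPM, as did the surface proteins Nt5e (28.0 and 13.3 to 83.5 and 92.0 CPM) and Cd34 (160 and 53.6 to 528 and 441 CPM). Mesenchymal genes thus moved in both directions. Thy1, a surface marker lost in the course of reprogramming, was not called, at 409 and 122 CPM in MEFs and 232 and 213 CPM on day 4, where the groups overlapped. S100a4, a calcium-binding protein of motile mesenchymal cells, was not called either, at 567 and 724 against 750 and 822 CPM.

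Of 21 contractile genes and TGF-beta targets, 13 fell and 2 rose (median -0.82). Tgfb2, a TGF-beta ligand, fell from 187 and 236 CPM to 41.6 and 45.9 CPM, and its receptor Tgfbr2 from 640 and 514 CPM to 237 and 224 CPM. Among the contractile members Cnn1, calponin, fell from 20.1 and 16.2 CPM to 1.04 and 2.08 CPM and Myl9, a myosin light chain, from 155 and 124 CPM to 55.9 and 52.3 CPM. Acta2, smooth muscle actin, was not called, with 1011 and 484 CPM against 426 and 400 CPM. Tgfbi, a secreted protein induced by TGF-beta, went the other way, from 310 and 268 CPM to 810 and 650 CPM.

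Transcription factors of epithelial-to-mesenchymal transition and of the mesenchyme fell in 19 of 25 cases and rose in 1 (median -1.04). Osr1, a regulator of limb connective tissue, fell from 83.3 and 114 CPM to 11.8 and 12.3 CPM (log2 -3.03 ± 0.21). Sox9, a regulator of cartilage, fell from 30.6 and 41.1 CPM to 3.78 and 4.72 CPM, and Nfix, a nuclear factor I protein, from 242 and 280 CPM to 72.4 and 71.0 CPM. The E-cadherin repressors did not fall alike. Zeb2 went from 148 and 127 to 38.2 and 39.8 CPM, Snai1 from 39.7 and 47.7 to 16.4 and 12.5 CPM, and Snai2 from 78.3 and 129 to 38.6 and 48.7 CPM. Zeb1 fell only from 147 and 144 to 108 and 116 CPM (log2 -0.38 ± 0.09), a call that was lost with library totals (log2 -0.21, adjusted p = 0.0595). Prrx1, a limb mesenchyme factor, kept 555 and 580 CPM of 864 and 820 CPM, and Tcf4 and Runx1 were not called. Meox2, a mesoderm homeobox factor, was the member that rose, from 19.3 and 14.6 to 27.6 and 27.2 CPM, a call lost without MEF_creAF10 replicate 2 or either day 4 library.

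Epithelial junction and surface genes rose in 17 of 19 tested cases (median 2.77), from low levels. Of the 26 members 7 did not pass the filter on low counts, and genes that passed it only through day 4 had to differ. Spint1 and Spint2, inhibitors of epithelial serine proteases, rose from 0.135 and 0.138 to 17.7 and 13.2 CPM and from 3.77 and 5.57 to 27.6 and 25.7 CPM. Dsp, desmoplakin, which anchors keratin at desmosomes, rose from 9.23 and 9.90 to 52.3 and 78.6 CPM. Epcam, an epithelial surface protein, reached only 3.34 and 2.58 CPM from 0.135 and 0.184 CPM, and Cldn3, a tight junction claudin, 7.67 and 5.54 CPM from 0 counts, at least 80.5-fold above the floor of 3 counts over both MEF libraries. Jup, plakoglobin, rose from a MEF level of 84.0 and 64.6 CPM to 123 and 103 CPM (log2 0.61 ± 0.22), a call lost without MEF_creAF10 replicate 2 or either day 4 library. The one member that fell was Cdh3, P-cadherin, from 114 and 115 to 8.11 and 8.50 CPM. Between Cdh1 and Cdh3 the order was therefore reversed, with Cdh1 at 62.6 CPM and Cdh3 at 8.31 CPM on average on day 4. The mesenchymal cadherin Cdh11 was still above both, at 330 and 372 CPM.

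Among keratins and epithelial regulators 12 of 16 tested rose and 1 fell (median 2.28), with the same limit from the filter, which 7 of 23 did not pass. Trp63, the transcription factor of basal and stratified epithelia, rose from 4.31 and 5.57 to 44.5 and 51.7 CPM, and Ehf, an epithelial ETS factor, from 0.0674 and 0.184 to 15.1 and 22.2 CPM. The laminin chains Lama3 and Lamb3, of the basement membrane beneath epithelia, did not move together. Lama3 rose from 8.62 and 11.4 to 46.0 and 52.5 CPM, but Lamb3 fell from 3.17 and 2.49 to 0.767 and 0.755 CPM (log2 -1.88 ± 0.70; adjusted p = 0.0452). The call of Lamb3 was lost when any of the 4 libraries was left out. The simple keratins stayed low, with Krt8 at 5.59 and 5.85 CPM from 1.89 and 0.184 and Krt18 at 3.95 and 2.96 CPM from 0.876 and 0.507. Krt19, a keratin of simple and progenitor epithelia, was the most abundant keratin tested, 46.8 and 56.2 CPM from 15.8 and 10.4 CPM. The call of Krt8 was lost without MEF_creAF10 replicate 2 (adjusted p = 0.157) and without either day 4 library.

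Of 20 early pluripotency genes 11 did not pass the filter on low counts. The 9 that passed were all called higher, but those near 0 in MEFs passed only through day 4 and had to differ, so this count is a description of the filter as much as of the list. L1td1, which binds RNA in pluripotent cells, rose from 0.135 and 0.230 to 64.0 and 56.5 CPM, and Tdh, threonine dehydrogenase, from 0.0674 and 0 to 11.3 and 15.8 CPM. Fgf4, a growth factor of the epiblast and a target of OCT4 and SOX2, was at 0 counts in MEFs and at 8.06 and 9.44 CPM on day 4, at least 107-fold above the floor. Fbxo15, an early target gene of the same factors, rose from 0.202 and 0.322 to 11.6 and 8.12 CPM. The early genes below the filter had at most 11 counts in any of the 4 libraries: Sall4 had 0 in MEFs and 11 and 5 on day 4, Nr0b1 0 in MEFs and 9 and 7, Zfp42 0 and 0 against 0 and 1, Dppa5a 1 and 1 against 2 and 0, and Lin28a 0 throughout. Of 18 genes of the late network 9 were tested, of which 3 rose, 2 fell and 4 were not called. These shares were near the 27.2% and 26.6% of all genes. The summed level of the 9 was 161 and 126 CPM in MEFs and 104 and 97.4 CPM on day 4. Rif1, a telomere-associated and replication-timing factor expressed in many cells, was the most abundant on day 4, at 40.2 and 33.4 against 63.0 and 62.0 CPM. Nanog was at 0.741 and 0.230 CPM in MEFs and 1.97 and 1.51 CPM on day 4 and was not called (log2 1.92 ± 1.3). Esrrb had 2 and 4 counts in MEFs and 0 and 0 on day 4. Nodal, a TGF-beta family ligand of the epiblast, rose to 3.18 and 3.84 CPM, whereas Klf2, a naive pluripotency factor that fibroblasts also express, fell from 84.1 and 71.1 to 9.43 and 8.25 CPM.

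**Figure D2:**
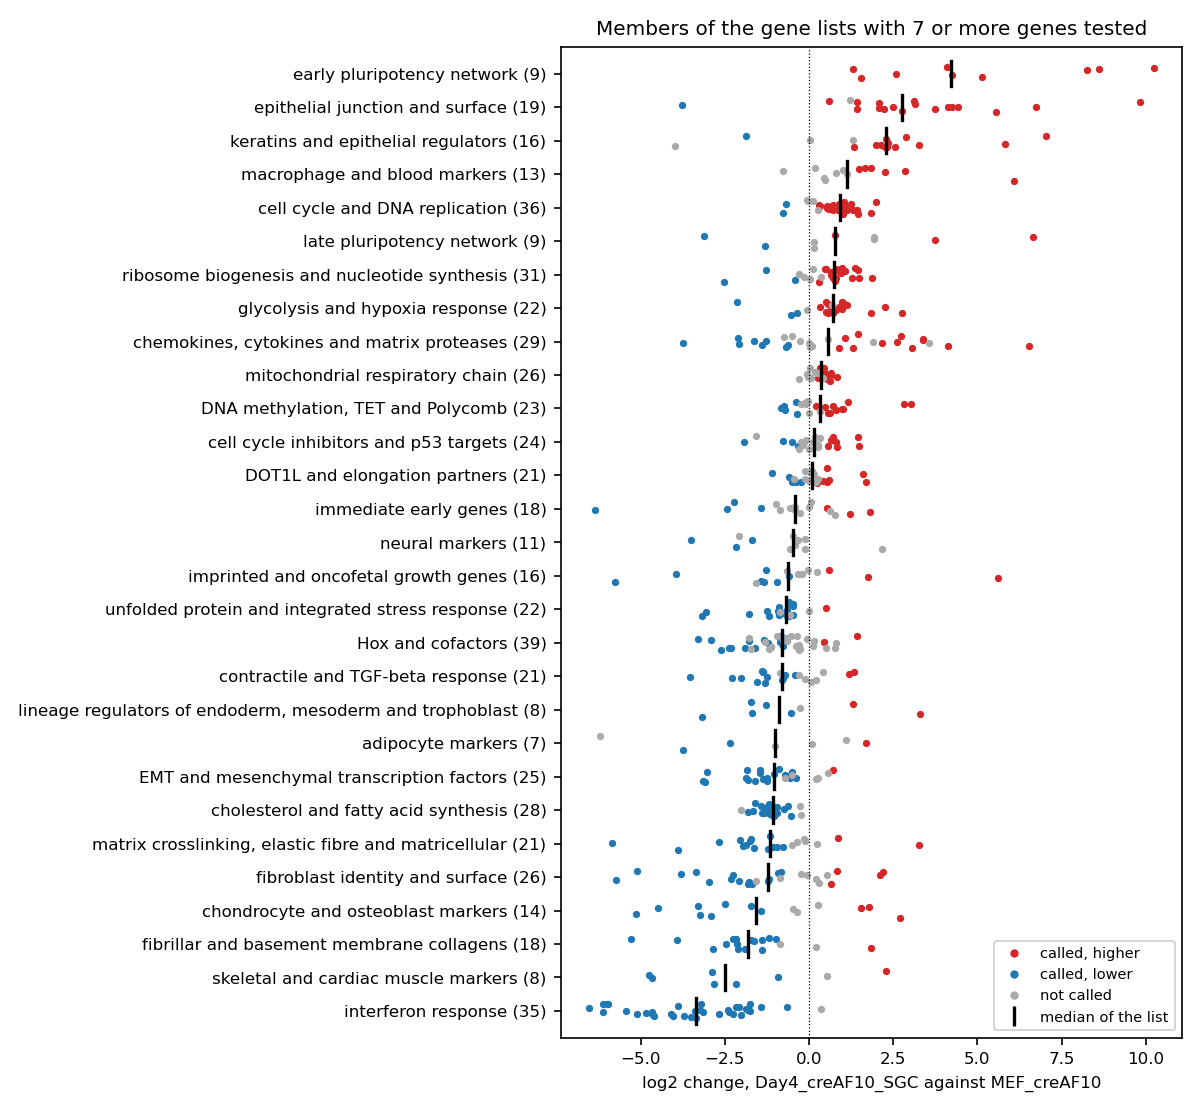
Log2 change from MEF_creAF10 to Day4_creAF10_SGC of each tested member of the gene lists with 7 or more tested members; the number tested stands in brackets, colour gives the call and the black bar the median. The interferon list lies farthest to the left with a median of -3.35, and several lists hold called genes on both sides of 0; medians of lists with many members near 0 in MEFs are set in part by the filter on low counts.

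Interferon-stimulated genes formed the most uniform loss: 34 of 35 fell, none rose, and the median log2 change was -3.35, against 0.02 for all genes. Isg15 went from 416 and 413 CPM to 3.84 and 8.18 CPM (log2 -6.12 ± 0.38), and Ifit1 from 510 and 532 CPM to 3.67 and 7.74 CPM (log2 -6.53 ± 0.44). Usp18, which removes ISG15 from proteins, fell from 129 and 141 to 1.70 and 2.52 CPM. The transcription factors of the pathway fell with its targets. Stat2 went from 357 and 370 CPM to 37.7 and 40.9 CPM, Irf9 from 142 and 151 to 30.6 and 30.0 CPM and Irf7 from 169 and 147 to 4.93 and 8.12 CPM. The list as a whole held 6553 and 6740 TPM in MEFs and 536 and 615 TPM on day 4, a ratio of 0.0865. Bst2, the surface antiviral protein tetherin, kept more than most, 89.4 and 89.5 CPM of 452 and 486 CPM. Oas3, an RNA sensor, was the exception, low in MEFs at 2.69 and 2.35 CPM and not called at 3.18 and 3.21 CPM on day 4. All 4 libraries came from cells that had been given adenovirus, and how long after infection the MEFs were harvested is not given in the labels.

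The motif capitalised above was found, on either strand, in the promoter windows of 16 of the 26 list members that had a window, 61.5%, against 398 of the 11000 tested genes with a window, 3.62%. On the strand of the gene alone the shares were 34.6% and 1.77%. Ifit1, Ifit3, Isg15, Stat2, Bst2 and Oas3 were among the 16. Oas3, the member that was not called, was low in MEFs at 2.69 and 2.35 CPM. Whether the motif has a part in the fall was not tested. CACCTG, a site to which the SNAI and ZEB repressors bind, was in the windows of 7 of 11 epithelial junction genes (63.6%), Epcam, Cldn3, Dsp and Spint2 among them, and in 21% of all windows. On the gene strand alone it was in 27.3% and 10.4%. For the contractile list the loose pattern of CC and GG with any 6 bases between them was in 100% of 15 windows and in 88.8% of all, and the CArG box of serum response factor, a search added after the data had been seen, in 2 of 15 (13.3%), those of Cnn2 and Myl9, against 1.55%. Such matches are letters in a window of 300 bases, read on either strand, and no binding was measured.

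Of 29 secreted inflammatory and proteolytic factors 12 were higher and 8 lower, beside 27.2% and 26.6% of all genes, so the lower share was near that of all genes. Mmp3 and Mmp13, the proteases stromelysin 1 and collagenase 3, rose from 34.7 and 52.5 to 408 and 507 CPM and from 47.4 and 22.2 to 183 and 278 CPM. Ccl2, a monocyte chemoattractant, rose from 26.1 and 7.64 to 102 and 103 CPM, and Lcn2, the iron-carrier-binding lipocalin, from 0.135 and 0.138 to 12.2 and 14.7 CPM. The membrane protease Mmp14 fell from 1334 and 1238 to 323 and 277 CPM, together with the inhibitor Timp2, from 2560 and 3319 to 675 and 729 CPM, whereas Timp1 rose from 96.7 and 105 to 175 and 200 CPM. Cxcl12, the chemokine of stromal cells, fell from 974 and 1366 to 446 and 445 CPM. The chemokines Ccl2 and Cxcl12 thus moved in opposite directions.

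The proliferation list moved up by about 2-fold at most genes: 30 of 36 cell cycle genes rose and 2 fell (median 0.93). Mki67 rose from 158 and 124 to 373 and 393 CPM, Ccnb1, the mitotic cyclin B1, from 39.6 and 33.8 to 89.1 and 84.9 CPM, and the replication factor Mcm10 from 5.66 and 6.31 to 22.4 and 20.8 CPM. The G1 regulators E2f1 (35.0 and 40.9 to 25.8 and 21.4 CPM) and Ccne2 (13.1 and 9.81 to 6.08 and 7.30 CPM) were the pair that fell. Of 24 cell cycle inhibitors and p53 targets 7 rose, 4 fell and 13 were not called. The higher share was near the 27.2% of all genes, and the lower share was under their 26.6%. Cdkn1a, p21, was not called at 371 and 418 against 384 and 355 CPM, and Cdkn2a, the locus of p16 and p19, rose from 46.4 and 61.7 to 88.3 and 82.2 CPM. Trp53 rose from 99.2 and 92.8 to 157 and 126 CPM.

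Growth metabolism rose with proliferation. Ribosome biogenesis and nucleotide synthesis genes rose in 23 of 31 cases and fell in 3 (median 0.73), with Paics of purine synthesis going from 156 and 161 to 589 and 566 CPM and the nucleolar protein Ncl from 552 and 453 to 1007 and 981 CPM. Mthfd2 and Phgdh, enzymes of one-carbon and serine metabolism, went down instead, from 59.6 and 31.9 to 8.33 and 7.37 CPM and from 145 and 111 to 55.1 and 50.7 CPM. Glycolysis and hypoxia genes rose in 17 of 22 cases and fell in 3 (median 0.70). The glucose transporter Slc2a3 rose from 8.35 and 5.02 to 46.2 and 42.4 CPM and hexokinase Hk2 from 20.6 and 13.9 to 57.4 and 65.3 CPM. The hypoxia targets Car9 (9.63 and 9.95 to 2.52 and 1.89 CPM) and Vegfa fell, as did Hk1, another hexokinase. Respiratory chain genes rose in 17 of 26 cases and fell in none, by a median of 0.35.

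Sterol and stress programmes went down. Of 28 cholesterol and fatty acid synthesis genes 25 fell and none rose (median -1.07). Sqle of the sterol branch fell from 222 and 134 to 67.5 and 65.3 CPM, and Fasn and Elovl6 of the fatty acid branch from 408 and 381 to 198 and 188 CPM and from 131 and 128 to 60.6 and 65.2 CPM. Scd1 was not called, at 289 and 201 against 198 and 221 CPM, while the related desaturase Scd2 fell from 1525 and 1056 to 520 and 494 CPM. The media differed in serum content, and the part of that was not tested. Of 22 unfolded protein and integrated stress response genes, 18 fell and 1 rose (median -0.70), with the chaperone Hspa5 going from 1007 and 896 to 612 and 596 CPM and Chac1, a glutathione-degrading enzyme, from 24.6 and 12.7 to 1.92 and 2.14 CPM. Ddit3 and Trib3, which act late in the stress response, fell from 48.5 and 40.6 to 12.2 and 13.8 CPM and from 31.9 and 13.7 to 3.02 and 2.39 CPM.

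**Figure D3:**
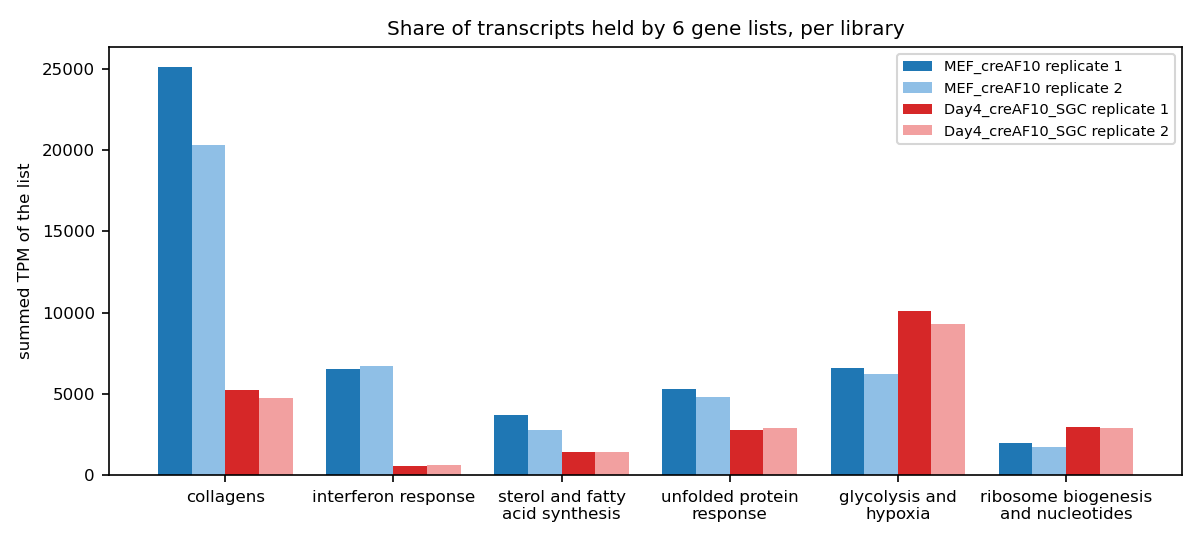
Summed TPM of selected gene lists in each of the 4 AF10-deleted libraries. The collagen list falls from 25100 and 20330 to 5235 and 4764 TPM and the interferon list from 6553 and 6740 to 536 and 615 TPM, while the glycolysis list rises from 6567 and 6211 to 10090 and 9309 TPM.

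Of 18 immediate early genes 5 were lower, 3 higher and 10 not called, and the lower share was near the 26.6% of all genes. Fosb fell from 383 and 410 to 2.08 and 7.74 CPM and Jun from 479 and 359 to 77.8 and 77.3 CPM, both components of AP-1, as was Jund (250 and 238 to 96.0 and 86.6 CPM). Fos fell from 930 and 930 to 105 and 293 CPM (log2 -2.23 ± 0.82; adjusted p = 0.0497), a call that was lost without either MEF library or without Day4_creAF10_SGC replicate 1. Egr1, at 471 and 967 CPM on day 4 against 997 and 911 CPM, was not called. Fosb, Fos and Egr1 were all higher in day 4 replicate 2 than in replicate 1. Ier3 and the ERK feedback inhibitor Spry4 rose, Spry4 from 15.4 and 13.8 to 43.0 and 58.8 CPM.

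Chromatin regulators were called in both directions. In the DOT1L and elongation list 7 of 21 rose and 5 fell (median 0.08), near the 27.2% and 26.6% of all genes; with library totals it was 10 and 3. Mllt3 (AF9), a partner of DOT1L, rose from 24.9 and 35.2 to 98.5 and 98.4 CPM and Mllt6 (AF17), a relative of AF10, from 55.2 and 63.3 to 89.4 and 82.9 CPM. The elongation factors Aff4, Aff1 and Ell2 fell, Ell2 from 67.2 and 101 to 37.2 and 41.5 CPM. Of 23 DNA methylation, TET and Polycomb genes 12 rose and 5 fell, beside 27.2% and 26.6% of all genes, so the lower share was under that of all genes. The maintenance methylation factor Uhrf1 went from 34.2 and 31.5 to 77.3 and 69.8 CPM and the Polycomb protein Cbx7 from 3.03 and 3.64 to 29.5 and 25.5 CPM. Bmi1, Dnmt3a and Tet1 fell, Tet1 from 25.1 and 18.4 to 12.7 and 13.0 CPM.

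Hox genes and cofactors, and imprinted and oncofetal growth genes, were called lower more often than higher. Of 39 Hox genes and cofactors 15 fell, 2 rose and 22 were not called (median -0.79). Hoxd12 fell from 7.82 and 12.5 to 1.04 and 1.01 CPM and Hoxb9 from 27.4 and 12.3 to 3.67 and 1.51 CPM, whereas Hoxd13, the most distal limb gene of its cluster and the most abundant Hox gene of the list, was not called at 89.7 and 166 against 61.8 and 87.3 CPM. Hoxa9 rose from 16.8 and 19.3 to 24.3 and 24.9 CPM (adjusted p = 0.0401), a call lost without MEF_creAF10 replicate 1 or either day 4 library. Of 16 imprinted and oncofetal growth genes 7 fell and 3 rose. Igf2, the insulin-like growth factor of the fetus, fell from 6436 and 8658 to 388 and 587 CPM and went from rank 9 to rank 483 by mean TPM. Dlk1, a fetal growth regulator, fell from 1213 and 271 to 15.7 and 11.3 CPM, and Bex1 rose from 0.404 and 0.138 to 12.3 and 12.8 CPM.

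Markers of other lineages were examined because cultures of MEFs can hold other cells. In bulk RNA, fewer cells of a type and less RNA per cell cannot be told apart. Of 13 macrophage and blood genes tested 6 rose and none fell, beside 27.2% and 26.6% of all genes. Members near 0 in MEFs that passed the filter only through day 4 had to differ, so this count describes the filter as well. The summed level of the list was 29.0 and 11.7 TPM in MEFs and 72.6 and 88.5 TPM on day 4. Laptm5, a lysosomal protein of blood cells, held most of the day 4 level, at 1.01 and 0.461 CPM in MEFs and 42.7 and 52.5 CPM on day 4. In Day4_fl_DMSO it was at 39.5 and 47.7 CPM. Cd68, a lysosomal protein of macrophages, rose from 2.09 and 1.57 to 5.21 and 4.97 CPM and Cd14, a coreceptor for bacterial lipopolysaccharide, from 1.08 and 0.875 to 3.56 and 2.52 CPM. Fcer1g, Lyz1 and Itgam, called higher as well, stayed under 1.6 CPM. Ptprc (CD45) had 2 and 1 counts in MEFs and 1 and 3 on day 4, and the receptor Csf1r was not called at 1.75 and 1.66 against 0.877 and 1.13 CPM. The part of such cells in the day 4 results was not tested. Of 9 endothelial markers 3 were tested. Tek, the angiopoietin receptor, rose from 15.7 and 17.0 to 80.5 and 118 CPM and carried the summed level of the list from 21.4 and 20.5 to 81.7 and 120 CPM. Kdr, a receptor of vascular endothelial growth factor, fell from 4.92 and 3.32 to 0.987 and 0.441 CPM, Cdh5 was not called at 0.808 and 0.230 against 0.219 and 0.818 CPM, and the other 6, Pecam1 among them, had at most 9 counts in any of the 4 libraries. Muscle markers fell in 6 of 8 cases with 1 higher, and chondrocyte and osteoblast markers in 8 of 14 with 3 higher. Of 11 neural markers tested 3 fell, 0 rose and 8 were not called, and the lower share was near the 26.6% of all genes. The summed level of the neural list went from 149 and 152 CPM to 182 and 222 CPM, whereas the neural crest factor Sox10 fell from 24.7 and 13.9 to 2.25 and 1.07 CPM. Of 30 regulators of endoderm, mesoderm and trophoblast 28 were in the data and 8 passed the filter. Of these 8, 2 rose, 1 was not called and 5 fell, Gata6 from 15.1 and 10.5 to 1.37 and 1.45 CPM among them.

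Over all genes of at least 10 CPM, the largest rises were those of the list members Tdh, L1td1 and Pou5f1 and of Cacna2d2, a calcium channel subunit (0.0674 and 0.0461 to 19.2 and 20.5 CPM), Insm1, a neuroendocrine zinc finger factor (0.0674 and 0.0461 to 21.3 and 15.9 CPM), Acsbg1, an acyl-CoA synthetase (0.606 and 0.507 to 101 and 115 CPM), and Nup210, a nuclear pore membrane protein (0.0674 and 0.0461 to 13.9 and 9.63 CPM). Aldh3a1, an aldehyde dehydrogenase, reached the highest level of them, from 2.69 and 1.98 to 413 and 386 CPM (log2 7.44 ± 0.17). Atp2a3, a calcium pump, and 1110032A04Rik were the others. The largest falls, beside those of Ifit1, Isg15 and Fosb, were in Fat2, an atypical cadherin (10.8 and 17.2 to 0.0548 and 0.0630 CPM), Lrrtm1, a synaptic adhesion protein (12.2 and 15.8 to 0.164 and 0.0630 CPM), Tnmd, tenomodulin of tendon (41.4 and 14.3 to 0.384 and 0.315 CPM), Lypd1, Spock3, I830012O16Rik and Gm4951. Day 4 levels of these genes left no overlap with MEF levels, which follows from picking the largest called changes.

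A gene was taken as switched on when its mean was under 0.5 CPM in MEFs and at least 5 CPM on day 4, with at least 5 counts in each day 4 library, and as switched off in the reverse case. By that rule 60 genes were on and 25 off. With limits of 1 and 0.25 CPM the counts were 106 and 37 on and 64 and 11 off. The highest switched-on genes were L1td1, Ceacam1, an epithelial adhesion molecule (0.404 and 0.184 to 39.0 and 41.6 CPM), Atp2a3, Fgfbp1, a carrier of fibroblast growth factors (0.472 and 0.184 to 22.6 and 31.3 CPM), and Nrarp, a feedback inhibitor of Notch (0.472 and 0.414 to 28.5 and 24.6 CPM). The highest switched-off genes were Tnmd, Lypd1, Kcnd2, Lrrtm1 and Fat2. Switched-on genes were read in the other day 4 groups too. Atp2a3 averaged 13.2 CPM in Day4_fl_DMSO, 21.5 CPM in Day4_creAF10_DMSO and 32.6 CPM in Day4_fl_SGC, beside 34.1 CPM in Day4_creAF10_SGC. The other highest switched-on genes named above showed no such gap. L1td1 averaged 57.79 CPM in Day4_fl_DMSO and 60.25 CPM in Day4_creAF10_SGC, and Fgfbp1 21.97 and 26.96 CPM. Ceacam1, at 52.76 and 40.29 CPM, and Nrarp, at 29.71 and 26.53 CPM, averaged higher in Day4_fl_DMSO.

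The next comparison asked what the inhibitor added in AF10-deleted cells, against Day4_creAF10_DMSO. Without pairing 1 gene was higher and 0 lower (0.00718% of genes), while 955 had an unadjusted p under 0.05. By DESeq2 the calls were 33 and 15. No gene was higher when any of these 4 libraries was left out. Genes of low p that were not called were Pygl, a glycogen phosphorylase (25.8 and 25.7 against 12.2 and 13.6 CPM), Tmtc1 and the laminin-binding integrin chain Itga6 (57.4 and 52.6 against 32.7 and 36.1 CPM), and on the lower side Igf2bp1, Igfbp5, Zmynd8, Lpar1 and Hoxd12. Igfbp5 was at 114 and 145 CPM with the inhibitor against 268 and 287 CPM without it (adjusted p = 0.0629). In all of these the 2 inhibitor libraries lay to one side of the DMSO libraries. The genes were picked for low p in this same comparison, so that separation adds no support.

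With the replicate number as a block within each stage, 736 genes were higher (5.28%) and 344 lower (2.47%) with the inhibitor, 7.75% in all. Among epithelial genes, 12 of 19 junction genes and 11 of 16 keratins and epithelial regulators were higher and none lower, with medians of 0.64 and 0.90. Cdh1 was at 68.2 and 57.0 against 43.6 and 31.9 CPM (adjusted p = 3.82e-05 with the block, 0.687 without), Trp63 at 44.5 and 51.7 against 27.2 and 29.0 CPM and Epcam at 3.34 and 2.58 against 1.19 and 1.01 CPM. Of 39 Hox genes and cofactors 17 were lower and none higher (median -0.38), Hoxd12 at 1.04 and 1.01 against 4.95 and 5.14 CPM. Of 25 mesenchymal transcription factors 10 were lower and none higher, Osr1 at 11.8 and 12.3 against 26.6 and 21.4 CPM. The matrix did not follow, since 10 of 21 matricellular and 7 of 18 collagen genes were higher with the inhibitor and 2 and 0 lower. In the cell cycle list 1 of 36 was lower and 0 higher.

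The change in AF10-deleted cells under the inhibitor was then set beside that in fl cells, with which it shares no library. Across the 13936 genes the log2 changes correlated with those of fl cells under the inhibitor at a Pearson coefficient of 0.94, and with those of fl cells in DMSO at 0.904, as a description over genes that share 1 scaling and no test. Of the 7495 genes called here 6474 were called with the same sign and 0 with the opposite sign in Day4_fl_SGC against MEF_fl, which is 86.4% of these calls and 88.9% of those. For Day4_fl_DMSO against MEF_fl it was 6032 with the same sign and 19 with the opposite, 80.5% and 83.2%.

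**Figure D4:**
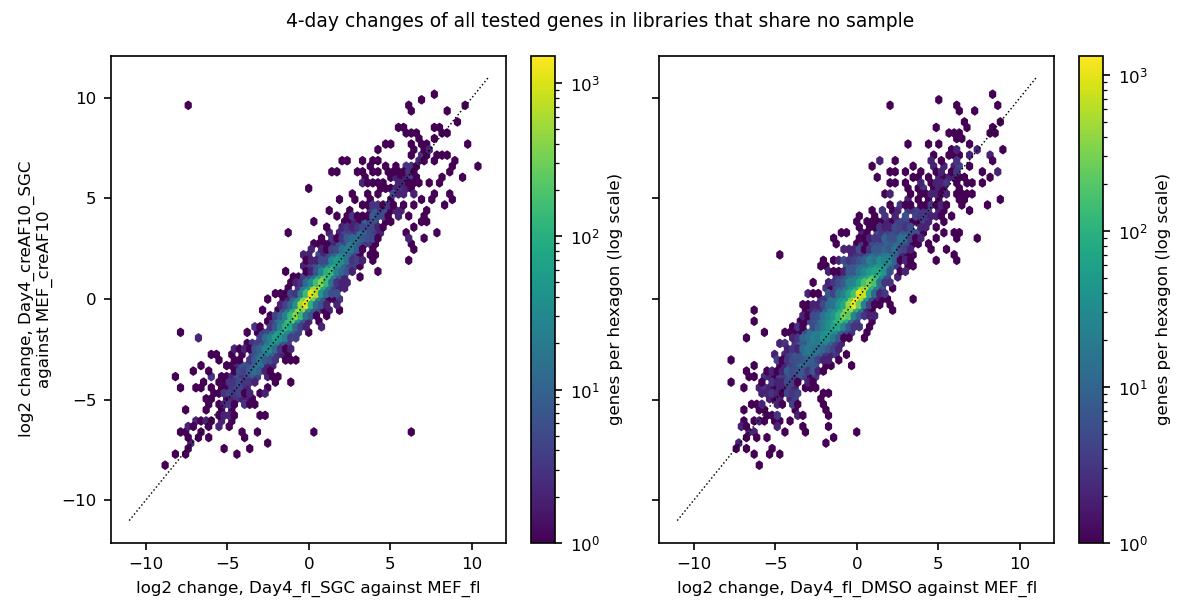
Log2 change of each tested gene from MEF_creAF10 to Day4_creAF10_SGC (vertical axis) against the 4-day change in fl cells with SGC0946 (left) and with DMSO (right), as hexagons coloured by the number of genes on a log scale; the dotted line marks equal change. The genes lie along the line in both panels, with a Pearson coefficient of 0.94 on the left and 0.904 on the right.

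The difference between those changes was itself tested. Against the change in fl cells under the inhibitor, 0 genes (0%) were called by edgeR without pairing, and 286 had an unadjusted p under 0.05. By DESeq2 the calls were 1 and 0. With the replicate block per stage 52 genes were higher (0.373%) and 14 lower (0.1%), 0.474% in all. Of these 52, 15 were interferon genes, out of 35 in the list, which had a median difference of 0.67. For those named here the gap lay between the MEF groups. Gbp2, an interferon-inducible GTPase, was at 69.8 and 50.8 CPM in MEF_creAF10 and 125 and 118 CPM in MEF_fl, and on day 4 with inhibitor at 8.06 and 10.8 CPM and 8.11 and 7.45 CPM. Oas1a was at 42.4 and 41.1 CPM against 77.8 and 84.5 CPM in MEFs, and at 4.22 and 5.23 against 4.38 and 4.09 CPM on day 4. Both genes were lower in each MEF_creAF10 library than in either MEF_fl library.

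Mt1, a metal-binding metallothionein, gave the largest difference of the named genes in the other direction. It was at 380 and 552 CPM in MEF_creAF10 and 61.1 and 121 CPM in MEF_fl, and at 320 and 219 against 264 and 154 CPM on day 4 with the inhibitor (difference of changes -2.01; adjusted p = 3.09e-09 with the block, 1 without). Igf2 and Postn fell further in AF10-deleted cells, by 0.53 and 0.52 on the log2 scale with the block. No epithelial or keratin list member was called either way in this comparison, with or without the block.

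Set against the change in untreated fl cells, which differs from the studied change in both AF10 and the inhibitor, 1 gene was higher without pairing and 0 lower (0.00718%), with 1177 at an unadjusted p under 0.05 and 65 higher and 23 lower by DESeq2. Leaving out 1 library at a time gave 0 to 9 higher genes, the 9 without MEF_creAF10 replicate 1. With the block 917 genes were higher (6.58%) and 511 lower (3.67%), 10.2% in all. Of the lists, 6 of 19 junction genes and 6 of 16 keratins and epithelial regulators were higher in this difference and none lower. The same held for 16 of 35 interferon genes and 10 of 29 secreted factors. Lower were 11 of 39 Hox genes and cofactors and 7 of 25 mesenchymal factors, with 0 and 1 higher. The interferon list summed to 5762 and 5635 CPM in MEF_creAF10 against 7940 and 8701 CPM in MEF_fl. In Day4_creAF10_SGC it summed to 517 and 591 CPM, against 560 and 591 CPM in Day4_fl_DMSO. Fibroblast identity genes were called both ways, 8 of 26 higher and 5 lower, as were immediate early genes, 8 of 18 higher and 3 lower. Spp1 was at 2566 and 3313 CPM against 1202 and 1511 CPM in Day4_fl_DMSO, Tbx15, a limb and skeletal factor, at 160 and 161 against 244 and 241 CPM, and Nfix at 72.4 and 71.0 against 130 and 155 CPM. Prkar1b, a regulatory subunit of protein kinase A, and Fam169b were higher as well, Fam169b at 20.9 and 22.5 against 12.5 and 10.5 CPM.

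**Figure D5:**
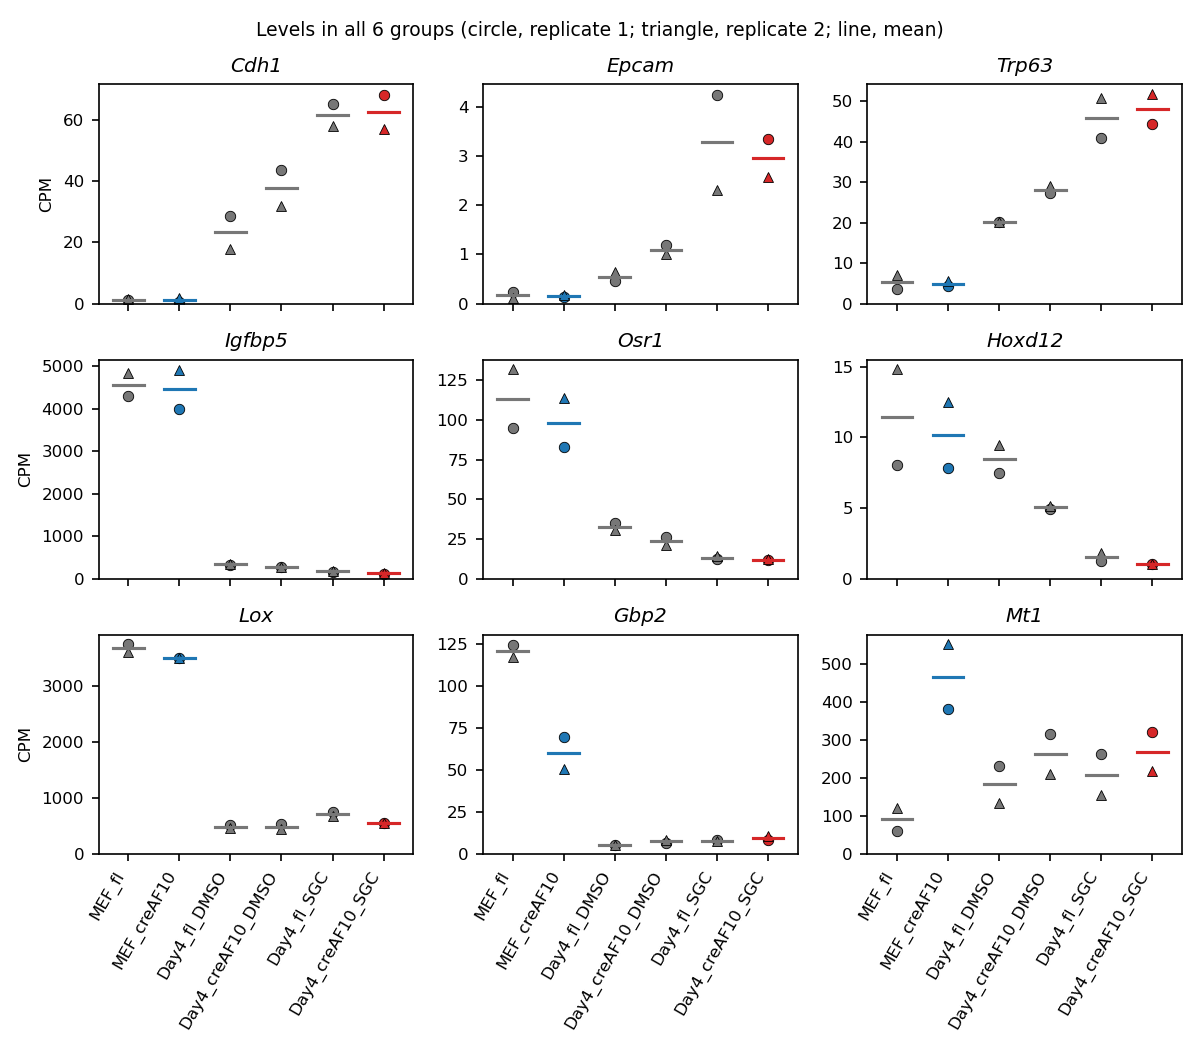
CPM on a linear scale in all 6 groups for genes that differed between day 4 groups or between MEF groups; MEF_creAF10 is blue, Day4_creAF10_SGC red and the other groups grey, with a line at each mean. Trp63 reaches 44.5 and 51.7 CPM with the inhibitor, overlapping the 40.9 and 50.7 CPM of Day4_fl_SGC, while Gbp2 and Mt1 differ between the MEF groups.

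The levels of the marker genes were set side by side over the day 4 groups. Cdh1 was lowest in Day4_fl_DMSO (28.8 and 18.0 CPM), then came Day4_creAF10_DMSO (43.6 and 31.9 CPM), Day4_fl_SGC (65.3 and 58.1 CPM) and Day4_creAF10_SGC (68.2 and 57.0 CPM), of which the last pair overlapped. Igfbp5 ran the other way, from 335 and 356 CPM in Day4_fl_DMSO through 268 and 287 CPM in Day4_creAF10_DMSO and 165 and 184 CPM in Day4_fl_SGC to 114 and 145 CPM in Day4_creAF10_SGC, with no overlap of neighbours. Lox was highest in Day4_fl_SGC (755 and 675 CPM) and at 552 and 542 CPM in Day4_creAF10_SGC. Its levels in DMSO, 516 and 457 CPM in fl and 532 and 436 CPM in AF10-deleted cells, overlapped each other. Postn was at 120 and 85.1 CPM in Day4_fl_DMSO and 98.3 and 80.5 CPM in Day4_fl_SGC. It was at 101 and 67.1 CPM in Day4_creAF10_DMSO and 70.0 and 57.2 CPM in Day4_creAF10_SGC, so neighbouring groups overlapped.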

How the data were processed

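RNA of 12 mouse libraries, 2 in each of 6 groups by title, was sequenced after TruSeq RNA Sample Prep Kit V2 preparation, per the labels' protocols, which do not say whether same-group libraries came from separate animals. The authors deposited, per the file headers, RSEM expected counts, TPM and FPKM values per gene (FPKM not used here) for 20325 genes, with reads aligned by Bowtie to build mm9 (per the submitters' processing notes, without versions). Reads of genes with near-identical copies, or of overlapping genes on opposite strands, may be divided between them. Each deposited expected count was rounded, and files were joined through transcript identifiers because 10 of the files hold 25 gene names each turned into dates. Library totals were 14602536 to 22800753. Counts below such depth are given as counts or against a floor of 3 counts over the group, which covers counting error only. No reference of build mm9 was used, so positions come from RefSeq's GRCm38.p6.

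Genes passing edgeR's filterByExpr (13936) were tested in edgeR 4.0.16 (R 4.3.3) with TMM scaling, 1 term per group over the 12 libraries, the robust quasi-likelihood F test and Benjamini-Hochberg adjustment over all of them. SE is the log2 change divided by the square root of F. The common coefficient of biological variation was 0.148. DESeq2 1.42.0 was an alternative. In simulated counts 74% of genes changed 2-fold and 88% of those changed 4-fold were recovered for day 4 against MEFs. The corresponding shares were 71% and 85% for inhibitor against DMSO, and 47% and 77% for the difference of changes under inhibitor (13715 genes). The simulated counts held no difference between replicate numbers, unlike the real libraries. These shares therefore describe the simulated setting, and recovery in the real libraries was not measured.

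Replicate numbers 1 and 2 are in every title. Deviations of same-numbered libraries correlated at 0.286 to 0.737 over the 15 pairs of groups, 0.299 for the 2 groups studied, and Y-linked genes had 4035 to 4780 counts in replicate 1 and 8 to 52 in replicate 2 libraries. The numbers therefore mark 2 sources, and a fit with a replicate block per stage (MEFs, day 4) is printed beside the comparisons it moved. A p-value of that fit rests on the likeness of these 2 sources, not a spread over animals, and for day 4 against MEFs they do not measure that either.

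Named genes were the fixed markers, the cassette factors, the largest changes per comparison (at least 10 CPM in the higher group) and, per list, those with the lowest p and the highest level; not every gene the rule picks is named, and the counts and values of filtered genes, of Ptprc and of lineage markers were added after they were seen. The comparisons, the members and the gene lists were chosen with earlier results of these data known. Promoter windows matched 11000 tested genes. Alternatives were other scalings, no filter, non-robust fits, other thresholds, blocks and leaving out each library. A few genes that the rule picks are not reported here.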

Additional observations from a re-analysis of the deposited data

Results flagged for a closer look

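Differences between changes are listed here because a test of the difference itself passed the threshold. With a replicate block per stage, 52 genes had a higher and 14 a lower log2 change than in fl cells under the inhibitor. Against untreated fl cells the counts were 917 and 511. A higher change can be a smaller fall, and a lower change a larger fall.

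Among the named genes, the block gave differences from fl cells under the inhibitor of 1.11 for Oas1a, 0.91 for Ifih1, 0.93 for Ube2l6, 1.29 for Gbp2 and 0.63 for Bst2, all of the interferon response, and of -2.01 for Mt1, -0.53 for Igf2 and -0.52 for Postn. Each of the 5 interferon genes was lower in both MEF_creAF10 libraries than in either MEF_fl library, and Mt1 was higher in both.

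From untreated fl cells the block gave differences of 1.33 for Prkar1b, 1.6 for Fam169b, 2.31 for Ifi47, 1.84 for Gbp2 and 1.28 for Spp1, and of -0.93 for Igf2bp1, -1.38 for Igfbp5, -0.96 for Nfix, -0.61 for Tbx15 and -2.87 for Hoxd12. Ifi47, an interferon-inducible GTPase, was at 33.3 and 23.9 CPM in MEF_creAF10 and 55.5 and 58.0 CPM in MEF_fl.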

How the results depend on the processing

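Day 4 against MEFs kept its counts within 1.5 times under each alternative except a test against 2-fold, which called 767 higher and 762 lower genes; without 1 library at a time it called 2858 to 3295 higher and 2778 to 3328 lower, and with the replicate block 4268 and 4230. For inhibitor against DMSO the 1 higher gene became 0 with library totals and 0 to 0 without 1 library at a time, 33 with DESeq2, 71 with a single replicate block and 736 with a replicate block per stage; the 0 lower genes became 15, 22 and 344. For the difference from fl cells under inhibitor, DESeq2 called 1 higher gene and the replicate block per stage 52 higher and 14 lower. For the difference from untreated fl cells, no filter gave 10 higher and 3 lower genes, DESeq2 65 and 23, a single replicate block 170 and 56, and the replicate block per stage 917 and 511; without 1 library at a time it was 0 to 9 higher and 0 to 1 lower, 9 of them without MEF_creAF10 replicate 1. The cause was not tested. Switched-on and switched-off counts were 106 and 64 under 1 CPM and 37 and 11 under 0.25 CPM. On the gene strand alone the interferon motif was in 34.6% of members and CACCTG in 27.3%. Genes not called that changed sign without 1 library at a time ran over -0.88 to 0.87 (Thy1), -0.46 to 0.055 (Scd1), -0.18 to 0.083 (Sdha), -1.02 to 0.022 (Egr1), -0.028 to 2.50 (Lyz2); with library totals Cdkn1a went to 0.065 and Sdha to 0.11. With 2 libraries a group, left-out fits assume that the lone library varies like the others, and genes under about 1 CPM rest on few counts.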
